A study of Mus musculus with 12 samples.

Results

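Phosphatidylcholine is the main phospholipid of liver membranes, bile and lipoproteins, and 7 genes that make, remodel or carry it were followed in mouse liver: Mfsd2a, Pemt, Chka, Pcyt1a, Pcyt2, Etnk2 and Lpcat3. They were picked by name out of 11968 genes with sufficient reads, for their statin against chow values within each sex, so those values are given below as a description without a test. All 7 had reads in all livers and passed the filter on low values. The livers came from C57BL/6J mice, an inbred strain with no introduced allele, that were placed at 8 to 10 weeks of age on a chow diet alone or, for 4 weeks, on that chow plus simvastatin, a drug that blocks cholesterol synthesis. The labels give the dose as 0.1 g per kg of body weight, whereas the methods of the study give it per kg of food. Each sex had 3 livers on chow and 3 on statin, which made 4 groups and 12 livers, and the livers of a group were separate animals.

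The liver makes phosphatidylcholine by a pair of routes. In the CDP-choline route choline is phosphorylated by choline kinase (Chka), activated to CDP-choline by the CTP:phosphocholine cytidylyl transferase Pcyt1a, which is regarded as the rate-limiting step, and joined to diacylglycerol. In the other route phosphatidylethanolamine, made from ethanolamine by the kinase Etnk2 and the cytidylyl transferase Pcyt2, is methylated by Pemt, an enzyme that is found mostly in hepatocytes. Lpcat3 then adds polyunsaturated acyl chains to lysophospholipids. Mfsd2a is a sodium-dependent carrier of lysophosphatidylcholine, best known for bringing docosahexaenoic acid, a ω-3 fatty acid, into the brain, and its liver transcript is known to be induced by fasting.

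The libraries held between 46066381 and 60419223 reads on genes, so that 3 reads corresponded to between 0.0498 and 0.0651 CPM (counts scaled to a common total per library). Levels below are CPM with the library sizes scaled by TMM (trimmed mean of M values), and each group mean is followed by its SD over 3 livers. Among hepatocyte markers, 7 of 8 were matched and their summed level lay between 79362 and 158275 CPM in all livers. Most of this sum was Alb, which alone lay between 54509 and 132954 CPM. Summed levels of 8 Kupffer cell markers, by contrast, were between 471 and 753 CPM in the 6 female livers and between 274 and 443 CPM in the 6 male livers.

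Promoter windows of 300 bases, from 250 before to 50 after an annotated start, were taken from RefSeq (GRCm38.p6), where 6 of the 7 genes, all but Pcyt2, matched 9 windows. Below are 3 of them, for the gene with the largest statin difference (Mfsd2a), for the gene that was lower with statin without overlap in both sexes (Chka) and for the one gene with a sterol regulatory element (Pcyt1a). They lie at chr4:122961139-122961438 on the minus strand, chr19:3851523-3851822 on the plus strand and chr16:32430671-32430970 on the plus strand. Capitals mark, on either strand, the CCAAT box of that spelling, the GC box GGGCGG, the CRE half-site TGACG, the E-box CACGTG, the sterol regulatory element TCACNCCAC, or a direct repeat of AGGTCA with 1 (DR1) or 4 (DR4) bases between, and neighbouring matches may overlap.
Mfsd2a: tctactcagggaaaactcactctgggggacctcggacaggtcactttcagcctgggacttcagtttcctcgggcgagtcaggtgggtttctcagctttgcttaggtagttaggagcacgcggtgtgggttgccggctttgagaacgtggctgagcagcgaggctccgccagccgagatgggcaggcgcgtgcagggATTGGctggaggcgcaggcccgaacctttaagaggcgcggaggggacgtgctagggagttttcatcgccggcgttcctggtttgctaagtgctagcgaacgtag
Chka: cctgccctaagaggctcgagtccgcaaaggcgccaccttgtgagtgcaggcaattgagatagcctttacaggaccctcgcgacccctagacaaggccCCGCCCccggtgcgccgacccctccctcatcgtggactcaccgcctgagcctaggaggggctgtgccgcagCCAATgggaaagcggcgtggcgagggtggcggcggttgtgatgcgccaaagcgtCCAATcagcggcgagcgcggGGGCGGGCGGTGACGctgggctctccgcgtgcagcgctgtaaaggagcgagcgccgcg
Pcyt1a: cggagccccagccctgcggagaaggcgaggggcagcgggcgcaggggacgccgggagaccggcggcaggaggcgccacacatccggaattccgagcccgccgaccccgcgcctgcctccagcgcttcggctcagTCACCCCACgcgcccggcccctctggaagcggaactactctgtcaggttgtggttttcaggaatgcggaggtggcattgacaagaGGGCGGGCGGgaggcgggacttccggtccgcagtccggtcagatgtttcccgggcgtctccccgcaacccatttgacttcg

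The Mfsd2a window held a single match, a CCAAT box, which 37.4% of 32851 promoters in the same table also hold. Chka held a CRE half-site, a pair of CCAAT boxes and 3 GC boxes, and these motifs occur in 20.8%, 37.4% and 35.7% of all promoters. Of the 6 genes with a window, Pcyt1a alone held the sterol element, which 1.24% of promoters hold, at 1 site that 2 of its 3 windows share. No E-box, DR1 or DR4 was found in a member window, against 7.15%, 0.0396% and 0.0152% of all promoters. The windows printed above were rich in G and C, with 60.3% in Mfsd2a, 68.7% in Chka and 69.7% in Pcyt1a against a median of 52.7% over all promoters. The Pemt windows lay below that median, with 46.3% at chr11:60040139-60040438 and 51.7% at chr11:60036956-60037255. These are matches of letters, and binding was not measured.

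Mfsd2a (ENSMUSG00000028655.11, chr4:122946850-122961188, minus strand, 15 exonic blocks in the GENCODE annotation of GRCm38) had the largest log2 fold change of the 7 genes with statin, and it did so in males. On chow the female livers measured 179, 100 and 175 CPM, and the male livers 56.9, 70.2 and 70.9 CPM. With statin the female livers measured 165, 130 and 88.6 CPM, and the male livers 133, 118 and 144 CPM. The 3 male chow livers were therefore the 3 lowest of all 12, and the male statin livers lay within the range of the females.

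The mean level of Mfsd2a in males was 66.0 ± 7.91 CPM on chow and 132 ± 12.97 CPM with statin, a 2.00-fold difference with no overlap between the groups (log2 fold change 1.00, SE 0.25). In females it was 151 ± 44.5 CPM on chow and 128 ± 38.3 CPM with statin, and the groups overlapped (log2 fold change -0.24, SE 0.24). The female response minus the male response was -1.24 on the log2 scale, with an SE of 0.35. Since Mfsd2a was chosen on these contrasts, no p-value is attached to them. In bulk liver, fewer cells of a type and less RNA per cell cannot be told apart.

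**Figure D1:**
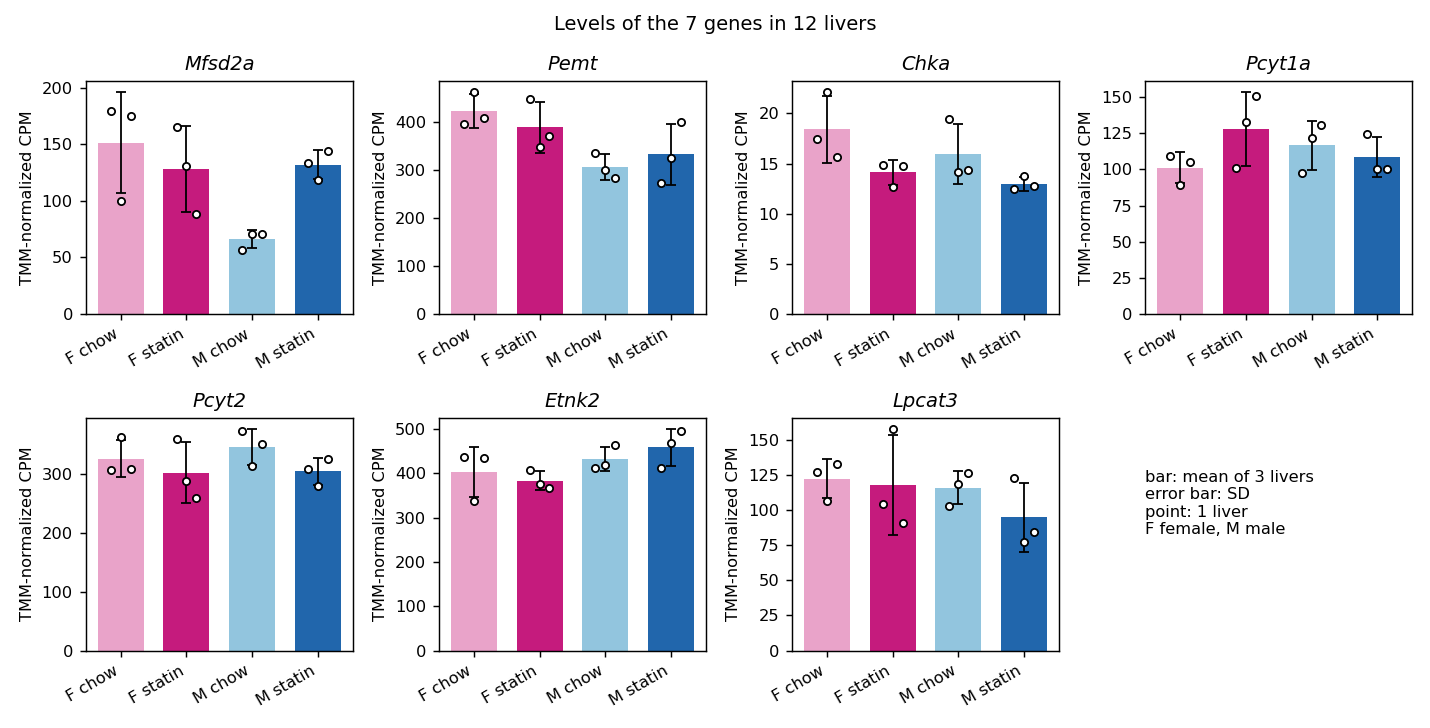
Level of each of the 7 genes (y axis, TMM-normalized CPM) in the 4 groups (x axis), with bars for the mean of 3 livers, error bars for the SD and points for single livers. Mfsd2a is lowest in the 3 male chow livers, at 56.9 to 70.9 CPM, whereas for Pcyt2, Etnk2 and Lpcat3 the chow and statin livers overlap in both sexes.

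The kinase of the CDP-choline route was lower with statin in both sexes. Chka (ENSMUSG00000024843.15, chr19:3851773-3894369, plus strand) measured 17.4, 22.1 and 15.7 CPM in female chow livers and 14.9, 12.7 and 14.8 CPM in female statin livers. In males it measured 19.4, 14.1 and 14.3 CPM on chow and 12.4, 13.7 and 12.8 CPM with statin. Neither sex showed overlap, with the lowest chow liver above the highest statin liver by less than the SD of the chow group in each case.

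The mean Chka level went from 18.4 ± 3.33 to 14.1 ± 1.24 CPM in females (log2 fold change -0.38, SE 0.16) and from 15.9 ± 3.00 to 12.98 ± 0.67 CPM in males (log2 fold change -0.30, SE 0.16). Without male chow liver 1 the male log2 fold change was -0.13. Between 607 and 1137 reads per liver lay behind these values, the fewest of any member. Its exons overlap other genes on the opposite strand (74 bases of Gm16066 and 165 bases of AC133523.2), and whether counting used strand was not stated.

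Pcyt1a, the next enzyme of the route (ENSMUSG00000005615.14, chr16:32430921-32475070, plus strand), was on average higher with statin in females and lower in males. It measured 109, 88.9 and 105 CPM in female chow livers and 101, 133 and 151 CPM with statin. Male livers measured 97.7, 121 and 131 CPM on chow and 124, 100 and 100 CPM with statin. In females 2 of 3 statin livers were above all chow livers, and the third was within their range.

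The log2 fold change of Pcyt1a was 0.34 (SE 0.17) in females, from 101 ± 10.7 to 128 ± 25.5 CPM, and -0.11 (SE 0.17) in males, from 117 ± 17.0 to 108 ± 13.9 CPM. Thus Chka and Pcyt1a, which catalyse successive steps, had log2 fold changes of opposite sign in females and of the same sign in males. Exons of Pcyt1a share 567 bases with Slc51a and 107 bases with 2210020O09Rik on the opposite strand.

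**Figure D2:**
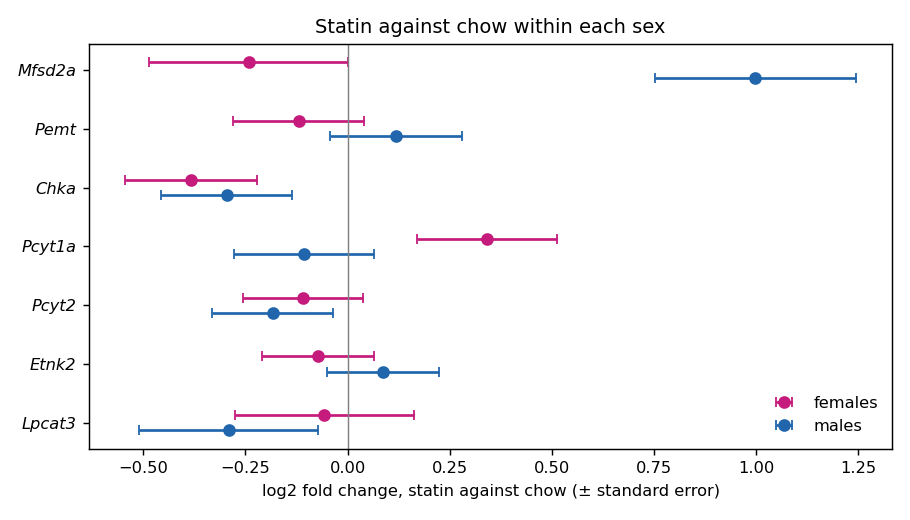
Log2 fold change of statin against chow (x axis) for the 7 genes (y axis) in females and males, with points for the edgeR estimate and bars for its standard error. Mfsd2a in males lies at 1.00 and all other values lie between -0.38 and 0.34.

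The genes of the CDP-ethanolamine route overlapped between chow and statin in both sexes. Pcyt2 (ENSMUSG00000025137.15, chr11:120610087-120617936, minus strand), its cytidylyl transferase, measured 307, 362 and 308 CPM in female chow livers and 359, 289 and 259 CPM with statin. Male livers measured 374, 313 and 351 CPM on chow and 309, 280 and 325 CPM with statin. The lowest liver of each chow group lay within the range of the statin group, and the log2 fold changes were -0.11 (SE 0.15) in females and -0.18 (SE 0.15) in males.

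Etnk2, the ethanolamine kinase that liver expresses strongly (ENSMUSG00000070644.13, chr1:133363572-133380336, plus strand), measured 438, 337 and 434 CPM in female chow livers and 407, 376 and 366 CPM with statin. Male livers measured 413, 419 and 463 CPM on chow and 413, 467 and 495 CPM with statin. The log2 fold changes of -0.07 (SE 0.14) in females and 0.09 (SE 0.14) in males were both within their errors, and no group stood clear of the one it was compared with.

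Pemt, which methylates phosphatidylethanolamine to phosphatidylcholine (ENSMUSG00000000301.16, chr11:59970614-60046489, minus strand), measured 395, 462 and 409 CPM in female chow livers and 448, 347 and 370 CPM with statin. Male livers measured 335, 300 and 283 CPM on chow and 273, 324 and 400 CPM with statin. On chow all female livers were above all male livers, and with statin the sexes overlapped.

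The log2 fold change of Pemt with statin was -0.12 (SE 0.16) in females, from 422 ± 35.2 to 388 ± 53.3 CPM, and 0.12 (SE 0.16) in males, from 306 ± 26.6 to 332 ± 63.6 CPM. The male value rested on 1 liver, as without male statin liver 3 it was -0.04.

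Lpcat3, the acyltransferase of the remodelling step (ENSMUSG00000004270.13, chr6:124663027-124704418, plus strand), measured 127, 106 and 133 CPM in female chow livers and 104, 158 and 90.6 CPM with statin. Male livers measured 103, 118 and 126 CPM on chow and 122, 77.0 and 84.6 CPM with statin. Its log2 fold changes were -0.06 (SE 0.22) in females and -0.29 (SE 0.22) in males, with overlap in both sexes, and its exons share 334 bases with Emg1 on the opposite strand.

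Among the 7 genes, 1 was lower and 0 were higher without overlap in female statin livers, where 5.97% and 6.03% of all genes were. In males 1 was higher (Mfsd2a) and 1 lower (Chka), where 3.64% and 4.3% of all genes were. The median log2 fold change of the 7 genes was -0.11 in females and -0.11 in males, and that of all genes was 0.01 and 0.00. After adjustment over all genes, 0.1% of all genes passed 0.05 in females by edgeR, and 0.0% in males. Male calls over all genes numbered 0 by edgeR and 4 by DESeq2, and 234 genes (1.96%) had an unadjusted p under 0.05. For the difference between the sexes in the response, 0 genes passed by edgeR and 130 by DESeq2, and 959 genes (8.01%) had an unadjusted p under 0.05. As the genes were chosen on these contrasts, nothing is read from their counts.

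Per kb of annotated exon, Pemt was the most abundant of the 7 transcripts, with a median of 170 and a range of 130 to 219 CPM per kb over the 12 livers. Etnk2 followed with a median of 91.1 CPM per kb, Pcyt2 with 71.5, Mfsd2a with 55.2, Lpcat3 with 34.4, Pcyt1a with 14.5 and Chka with 1.21 CPM per kb. Pemt exceeded Etnk2 in 12 of 12 livers and the ranges did not overlap, which also held for Lpcat3 over Pcyt1a and for Pcyt1a over Chka. The ranges of Etnk2 and Pcyt2 overlapped, as did those of Pcyt2 and Mfsd2a and those of Mfsd2a and Lpcat3, with the first of each pair ahead in 11, 10 and 9 livers. By group, Mfsd2a was at 67.3 (chow) and 56.9 (statin) CPM per kb in females, and at 29.3 (chow) and 58.6 (statin) CPM per kb in males. Lengths are unions of all annotated exons, and that of Chka (12024 bases) was the longest of the 7.

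The comparison of females with males, averaged over the diets, is orthogonal to the statin contrasts in this balanced design and was tested. It uses the same 12 livers, and the members were chosen with earlier results of these livers known. Over all genes 1343 were higher and 827 lower in females, and scaling by library size alone gave 1077 higher and 1326 lower. Mfsd2a was 1.49-fold higher in females (log2 fold change 0.58, SE 0.17, edgeR adjusted p = 0.0366), and it was the only member called among 7, where 18.1% of all genes were called. The direction was that of the chow livers (151 in females against 66.0 CPM in males), and with statin the means were 128 and 132 CPM. Female and male livers therefore overlapped. With 1 liver left out at a time the adjusted p was between 0.0115 and 0.0922, and among these 12 fits it was under 0.05 only without female chow liver 2 or female statin liver 3. Scaling by library size alone gave an edgeR adjusted p of 0.0583.

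Pemt was 1.27-fold higher in females (log2 fold change 0.34, SE 0.11), but with an adjusted p of 0.0554 by edgeR it did not pass, and by DESeq2 it was 0.0218. The remaining members had log2 fold changes of 0.19 (Lpcat3, adjusted p = 0.444), 0.17 (Chka, 0.365), 0.02 (Pcyt1a, 0.945), -0.05 (Pcyt2, 0.805) and -0.18 (Etnk2, 0.236), all by edgeR. The sign of Pcyt1a turned in 11 of 22 alternative settings.

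Markers of other liver cells moved with sex as well. Of 8 Kupffer cell markers 7 were higher in females by edgeR (median log2 fold change 0.88), where 11.2% of all genes were higher and 6.91% lower, and these were Clec4f, Adgre1, Cd5l, Vsig4, Timd4, Csf1r and Cd68, and Marco did not pass. For hepatic stellate cells 4 of 8 markers were higher. For endothelial cells 2 of 8 were higher and all 8 had a positive log2 fold change (median 0.51), and the count was 5 with DESeq2, with no filter and without female statin liver 1 or male statin liver 1, and 4 with a mean of at least 10 CPM or a correction for transcript length. By the same test 1 of 7 hepatocyte markers was higher (Alb) and 1 lower (Serpina1c). Summed stellate markers ranged from 260 to 406 CPM in female and 204 to 279 CPM in male livers, and summed endothelial markers from 301 to 498 and 253 to 381 CPM. No Kupffer marker was at 0 in any liver, and the scarcest, Marco, was at 3.09 CPM or more. Of cholangiocyte markers 1 of 6 and of the lymphocyte list 2 of 7 (Cd79b and Ptprc) passed the filter on low values. Among these Ptprc, which is not restricted to lymphocytes, was higher in females. The part of all these markers in the differences of Mfsd2a and of the pathway genes below was not tested. In the statin comparisons 0 of these markers passed by edgeR in either sex, and the median log2 fold change in females and males was 0.11 and -0.13 for Kupffer, -0.41 and -0.04 for stellate, -0.04 and -0.05 for endothelial and 0.21 and 0.01 for hepatocyte markers. For the 2 genes of the lymphocyte list it was 0.67 and -0.43, and for the 1 cholangiocyte marker -0.27 and -0.14.

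The wider pathway was described by 67 further genes in 8 lists, of which 59 passed the filter on low values. By edgeR 0 of the 59 passed in females and 0 in males with statin. Without overlap 8 were higher and 1 lower in female statin livers, where 6.03% and 5.97% of all genes were, and 3 were higher and 4 lower in male statin livers, where 3.64% and 4.3% of all genes were. For the 59 genes the median log2 fold change was 0.11 in females and -0.02 in males.

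Of 7 tested genes for the transport of phospholipids and their turnover in plasma, 4 were higher without overlap in females, where 6.03% of all genes were: Pctp, the phosphatidylcholine transfer protein, Abcb4, which exports phosphatidylcholine into bile, Lcat, which uses it to esterify cholesterol in plasma, and Stard10. In females Pctp measured 110 ± 14.1 CPM on chow and 192 ± 31.7 CPM with statin (log2 fold change 0.80, SE 0.17), and its adjusted p by edgeR was 0.106. The male values were 137 ± 17.3 and 130 ± 21.9 CPM. For Abcb4 the female log2 fold change was 0.62 (edgeR adjusted p = 0.362), and for Lcat it was 0.61 (adjusted p = 0.257). Abcb4, Lcat and Stard10 were named after their values were seen. The median over these 7 genes was 0.57 in females and -0.02 in males, and 0 of them passed by edgeR in either sex. Among 23 alternatives Pctp passed in females in 3, with a lowest adjusted p of 0.00208 by DESeq2.

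In females Ptdss1, a phosphatidylserine synthase, went from 51.1 ± 2.28 to 67.2 ± 7.09 CPM (log2 fold change 0.40, edgeR adjusted p = 0.218), and it passed in 1 of 23 alternatives, by DESeq2 (adjusted p = 0.046). Cept1, which joins CDP-choline or CDP-ethanolamine to diacylglycerol, had 0.26 (adjusted p = 0.473) and Lpcat1 0.40 (adjusted p = 0.415). Pnpla7, a lysophospholipase, was lower in the female statin livers, at 117 ± 25.5 against 168 ± 6.61 CPM (log2 fold change -0.52, adjusted p = 0.257 by edgeR).

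In males the largest differences without overlap within a list were -0.77 for Flvcr2, a choline transporter, -0.72 for Bhmt, which remethylates homocysteine with betaine, 0.49 for the endothelial lipase Lipg and 0.14 for Stard7, which carries phosphatidylcholine to mitochondria. Their adjusted p was 1.00 by edgeR, and the SE of Bhmt was 0.61.

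Between the sexes 14 of the 59 genes passed by edgeR, 6 higher and 8 lower in females, where 11.2% and 6.91% of all genes were. For these 59 genes DESeq2 gave 11 higher and 8 lower, and library size alone gave 4 higher and 8 lower, a scaling under which more of all genes were lower (1326) than higher (1077). Without female chow liver 1, or without male statin liver 2, 4 were higher and 5 lower. Of the 59 genes, 3 (Chpt1, Aldh7a1 and Stard7, all among the 14) were lower in females without overlap, where 3.63% of all genes were. The largest difference was in Chpt1, the cholinephosphotransferase that completes the CDP-choline route. Female livers measured 134 ± 13.9 CPM on chow and 156 ± 33.4 CPM with statin, and male livers 332 ± 51.5 and 334 ± 36.5 CPM. No female liver reached a male liver (log2 fold change -1.20, SE 0.13, edgeR adjusted p = 5.41e-05), and the call remained in 22 of 22 alternatives. Its exons share 660 bases with Sycp3 on the opposite strand.

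Cept1, which can catalyse the same last step, had a log2 fold change of 0.16 and was called in 0 of 22 alternatives. For the ethanolamine route the phospholyase Etnppl, which breaks phosphoethanolamine down, was lower in females (log2 fold change -0.62, edgeR adjusted p = 0.0286), and the call was lost without female chow liver 1 or 2, male chow liver 3 or male statin liver 2. In methyl supply, Ahcy, which hydrolyses S-adenosylhomocysteine, had -0.44 (adjusted p = 0.0168) and Aldh7a1, which makes betaine from its aldehyde, had -0.63 (adjusted p = 0.00124, no overlap). The choline transporter Slc44a1 was higher in females at 0.43 (edgeR adjusted p = 0.00933).

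Among carriers and remodelling enzymes, the phospholipid transfer protein Pltp was higher in females (log2 fold change 0.93, edgeR adjusted p = 0.0148), as were the acyltransferases Lpcat2 (0.77, adjusted p = 0.0086) and Lpcat1 (0.37, adjusted p = 0.047). Stard7 was lower by -0.31 without overlap (adjusted p = 0.0103). Of the enzymes that break the lipid down, the phospholipases Pla2g4a (0.97, adjusted p = 0.0107) and Pla2g15 (0.32, adjusted p = 0.0402) were higher in females by edgeR. Gpcpd1, which splits glycerophosphocholine, was lower at -0.997 (adjusted p = 0.025), hepatic lipase Lipc at -0.53 (adjusted p = 0.0137) and Pnpla6 at -0.37 (adjusted p = 0.0321).

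Most of these calls did not depend on a single setting. Those of Slc44a1, Ahcy, Aldh7a1, Pltp and Lipc remained in 22 of 22 alternatives, those of Lpcat2 and Pla2g4a in 21 of 21, and that of Stard7 in 21 of 22. The call of Gpcpd1 remained in 16 of 22, and was lost with the replicate block and without female chow liver 1 or 2, male chow liver 1 or 2 or male statin liver 2. Pnpla6 was called in 12 of 22, and not with the replicate block, a mean of at least 10 CPM or a correction for transcript length, nor without female chow liver 1 or 3, female statin liver 1, male chow liver 1 or 3 or male statin liver 2 or 3. For Lpcat1 (4 of 21) and Pla2g15 (7 of 22) leaving out any 1 liver ended the call, except female statin liver 3 for both, male statin liver 1 for Lpcat1 and male chow liver 2 for Pla2g15. Both calls were also lost with library size alone, both limma-trend fits, no filter on low counts and the replicate block, and that of Lpcat1 with DESeq2 size factors in edgeR and without the 10 highest genes. Lpcat2 and Pla2g4a were scarce, with group means from 2.08 to 4.13 CPM and from 1.54 to 4.07 CPM.

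**Figure D3:**
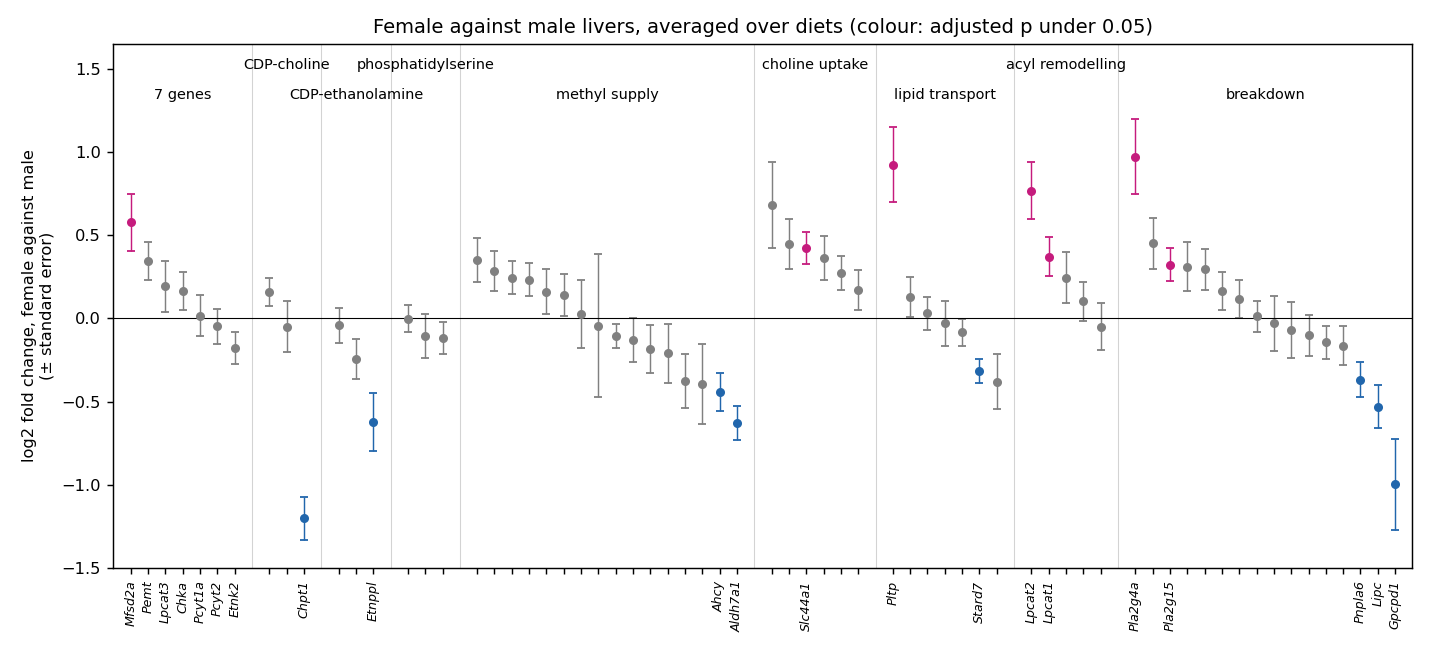
Log2 fold change of females against males, averaged over diets (y axis), for the 7 genes and 59 further pathway genes (x axis) by list, with bars for the standard error and colour for an edgeR adjusted p under 0.05. Names are given for the 7 genes and for those that passed. Mfsd2a is the only coloured member, at 0.58, and Chpt1 is the lowest of all, at -1.20.

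Across the 12 livers the genes of the filtered table whose levels ran most like Mfsd2a were AA986860, Suco, Brip1os, Acsl4 and Slc25a12. Their Pearson's r with Mfsd2a on the log2(CPM + 1) scale was 0.87, 0.85, 0.83, 0.82 and 0.81 among 11968 genes, and 0 genes reached 0.9. These are descriptions over 12 points that share sex, diet and library. AA986860 was scarce, at 1.19 ± 0.46 CPM in male chow and 2.97 ± 0.88 CPM in male statin livers. Acsl4 activates polyunsaturated fatty acids such as arachidonic acid, Slc25a12 is a mitochondrial aspartate and glutamate carrier, and Brip1os lies, by its name, opposite Brip1, so that its reads may not be told apart from that gene where strand was not used. Of the other members Pemt was the most like Mfsd2a (r = 0.47), followed by Etnk2 (0.16) and Lpcat3 (0.09), and Pcyt2 (-0.17), Chka (-0.23) and Pcyt1a (-0.34) had negative values.

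**Figure D4:**
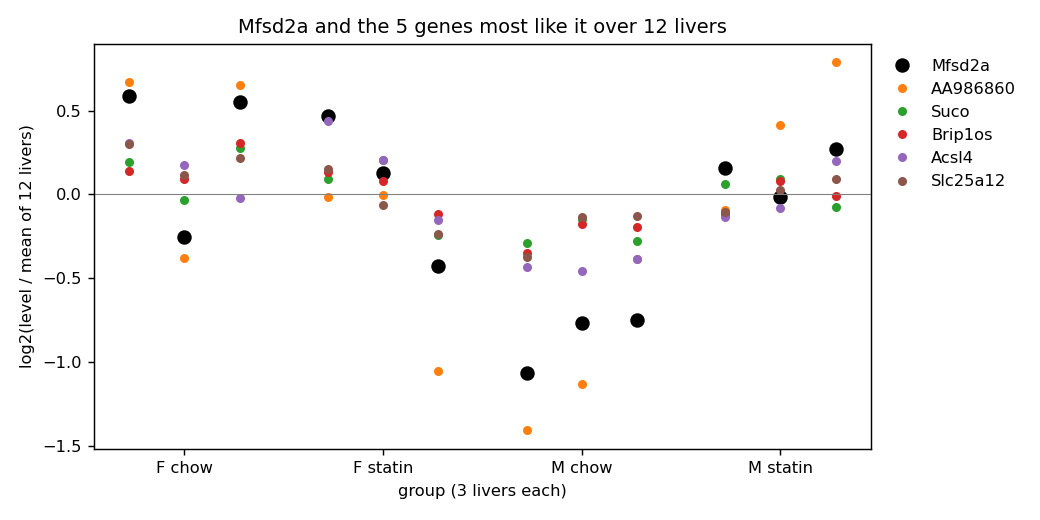
Log2 of the level over the mean of all 12 livers (y axis) for Mfsd2a and the 5 genes most like it, by liver within the 4 groups (x axis). The 3 male chow livers lie below the mean for Mfsd2a, whose values there are the lowest of the 12.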

How the data were processed

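RNA from 12 mouse livers was prepared with a strand-specific poly(A) kit and sequenced. Per the labels the authors aligned reads with STAR 2.4.1a to GRCm38, counted them with HTSeq and used edgeR 3.28.1, and the strand setting of the counting was not stated. The authors deposited a table of CPM for 48526 genes, each count divided by the total of its liver, and a table of counts for 11968 genes described as filtered and TMM-normalized. The values of the latter were whole reads, 0 of which differed from the reads recovered from CPM (100% whole within 0.05 reads), so they were used as raw counts. The filter, above 1 CPM in at least 6 livers, matched the table. Depth was 46066381 to 60419223 reads per liver, and the dispersion over 3 livers rather than counting error limits the precision.

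All 11968 genes were fitted with the quasi-likelihood test of edgeR 4.0.16 (TMM, 4 groups, no covariate, common dispersion 0.0380), with two-sided p-values adjusted by Benjamini-Hochberg over all genes and a threshold of 0.05. The contrasts were statin against chow in each sex, their difference, and female against male averaged over diets. Each SE was obtained as the size of the log2 estimate over the root of its F statistic. The members and the gene lists were chosen with earlier results of these data known. Named pathway genes are those that passed in any comparison and, per list and sex, the largest statin difference without overlap, and from each other list the 2 largest statin differences. Some genes that this rule names are not reported here. Abcb4, Lcat and Stard10 were named after their values were seen. Likeness to Mfsd2a is Pearson's r of log2(CPM + 1), and the 5 highest are named. On simulated counts with 200 of 11968 genes changed by 1 on the log2 scale, 135 were recovered in the female statin comparison with 3 false calls and 185 in the sex comparison with 13. Each gene was drawn separately, so variation that the genes of a liver share was not simulated, and these rates may not hold for the real livers. Positions, lengths and overlaps are from GENCODE vM21 on GRCm38, a symbol was found for 99.8% of genes, and motifs were searched in RefSeq promoters. DESeq2 1.42.0, limma 3.58.1 and the other settings given in the closing section were alternatives, of which DESeq2 size factors in edgeR were added after seeing the data. R 4.3.3, Python 3.11.15, numpy 2.4.6, pandas 2.3.3 and matplotlib 3.10.9 were used.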

Additional observations from a re-analysis of the deposited data

How the results depend on the processing

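The statin log2 fold changes of the 7 genes moved under the alternatives by less than the SD of the log2 levels between livers of a group, but with a liver left out by more than their SE for Lpcat3 (-0.33 to 0.12 in females, -0.52 to -0.16 in males) and Chka in males (-0.38 to -0.13). Signs turned for Lpcat3 in females without female chow replicate 3 (0.02) or female statin replicate 1 (0.03) or 3 (0.12), for Pcyt2 in females without female statin replicate 3 (0.01) and for Pemt in males without male statin replicate 3 (-0.04). Mfsd2a in males lay between 0.90 and 1.07 with a liver left out and between 0.98 and 1.02 otherwise, and in females between -0.46 and -0.02 with a liver left out.

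Counts of genes called depended more on the setting. Against 12 in females, DESeq2 gave 270, no filter 148, limma-trend with pseudocount 1 gave 7, a mean of at least 10 CPM 5, the replicate block 5 and each sex alone 0, with 0 to 75 without a liver (75 without female statin replicate 2). In males DESeq2 gave 4 against 0. The interaction gave 130 by DESeq2, 103 without a filter and 0 to 14 without a liver (14 without female statin replicate 2). The sex comparison gave 2170, 1081 at a mean of at least 10 CPM, where 7638 genes were tested, 2825 by DESeq2 and 1572 to 2264 without a liver. Limma-trend with pseudocount 1 split its calls into 1051 higher and 1356 lower in females.

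The sex difference of Mfsd2a (0.58) lost its call with library size alone (0.52, edgeR adjusted p = 0.0583), limma-trend at pseudocount 1 (0.47, adjusted p = 0.0816) and 0.1 (0.47, adjusted p = 0.0814) and the replicate block (0.56, adjusted p = 0.0673), and was 0.46 to 0.69 without a liver. That of Pemt (0.34) passed with DESeq2 (0.34, adjusted p = 0.0218) and with a correction for transcript length (0.29, edgeR adjusted p = 0.035) and without male statin replicate 3 (0.42, adjusted p = 0.0241), and was 0.28 to 0.42 without a liver. The cause was not tested. Same-numbered livers did not pair (mean r -0.108 over 18 pairs, against 0.0575 for other numbers, 5 of 18 above 0.1), so the block was not used, and it changed no other member call. Single pairs varied widely. Female statin replicate 1 had r = 0.68 with male chow replicate 1 and -0.74 with male statin replicate 1. Female statin replicate 2 had 0.75 with male statin replicate 1. The source of these correlations was not tested. Depth was not limiting for the members, of which Chka had 607 reads or more per liver.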

Other observations

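Genes of related liver programs were listed as well. Of 15 fasting and PPARα genes, a program under which Mfsd2a is known to be induced, Acot1, an acyl-CoA thioesterase, was called higher with statin in females (log2 fold change 2.14, SE 0.27, edgeR adjusted p = 0.0306), and Cyp4a14 had 1.36 (adjusted p = 0.287). The Acot1 call remained in 15 of 23 alternatives, with a log2 fold change of 1.89 to 2.44, and was lost with each sex fitted alone and without female chow replicate 2, female statin replicate 3, any 1 male chow liver, or male statin replicate 2 or 3. In females 6 of the 15 were higher without overlap, where 6.03% of all genes were, and the median of the 15 was 0.66. In males 0 were higher and 1 was lower (Fgf21, -0.83), where 3.64% and 4.3% of all genes were, and the median was -0.14. Pck1 in males had 0.63 with overlap.

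Targets of SREBP-2, which controls cholesterol synthesis, were not called with statin in either sex by edgeR. In females Sqle had a log2 fold change of -0.49 (SE 0.43) and Lss -0.46 (SE 0.29), and in males Sqle had 0.46 (SE 0.43). Averaged over diets, 4 of the 10 targets were called higher in females than in males by edgeR, where 11.2% of all genes were. Sqle, Lss and Insig1 were among these 4, and all 10 had a positive log2 fold change. The count was 2 with library size alone, both limma-trend fits or the replicate block. It was 1 without female chow replicate 1 and 5 without male statin replicate 3. Of 8 LXR genes 0 passed, with Nr1h2 at -0.34 and Nr1h3 at 0.18 in females and Abcg1 at -0.40 and Srebf1 at -0.29 in males.

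Of 15 clock genes 0 passed with statin, and the largest values were -0.60 for Arntl and 0.60 for Cry1 in females and 0.72 for Ciart and 0.45 for Per1 in males. Periportal genes had a median of -0.20 in females (Cps1 -0.54, Sds -0.49) and 0.14 in males (Sds 0.44, Gls2 0.34), and pericentral genes 0.29 (Cyp1a2 0.75, Cyp2e1 0.72) and 0.08 (Slc1a2 0.33, Oat 0.17). None of these zonation genes passed with statin by edgeR. The part of these programs in the Mfsd2a values was not tested.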
